A study of Mus musculus with 20 samples.

Results

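The mRNA levels of 10 genes that the ERK kinase cascade switches on were followed gene by gene through 15 mouse liver tumors and 5 livers. The genes were chosen by name and were found in both deposited count tables, which hold 50559 gene symbols: the phosphatases Dusp6 and Dusp4, the inhibitors Spry1, Spry2, Spry4 and Spred1, the transcription factors Etv4 and Etv5, and the immediate response factors Egr1 and Fosl1. Bulk RNA was sequenced in 4 groups of 5 libraries, each from a different animal. All animals were wild-type C57BL/6J females. The tumor groups were Aldafermin+MYC, FGF19+MYC and sgTrp53+MYC, and the remaining group was liver. The labels call the livers not treated, while the study describes control livers that received a plasmid for a red fluorescent protein. Tumors were made by hydrodynamic gene transfer, a rapid injection of plasmids into the tail vein that reaches hepatocytes, with the SB100X transposase inserting the genes. FGF19 and Aldafermin were expressed from the pSBbi-RN plasmid and sgTrp53 from LentiCRISPRv2; the treatment label of the sgTrp53+MYC samples reads None, and their group was taken from their titles. Every tumor therefore carried MYC driven by the EF1a promoter, and none of these libraries shows MYC or the FGF19 hormones acting alone. FGF19 is a gut hormone that limits bile acid synthesis in hepatocytes, Aldafermin is its engineered analog with a shortened and altered N-terminus, and sgTrp53 is a guide RNA delivered with Cas9 to cut the tumor suppressor gene Trp53. Each tumor was an individual nodule snap-frozen whole, so non-tumor cells in it were sequenced too.

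Growth factor receptors, among them the FGF19 receptor FGFR4, pass their signal through RAS, RAF and MEK to the ERK kinases. Active ERK enters the nucleus, where it acts on ETS factors and relieves repression by Capicua (Cic), and genes such as Dusp6, Spry4 and Etv5 are then transcribed. The proteins of Dusp6, Dusp4, the Sprouty genes and Spred1 dampen the cascade that induced them, which is why their mRNAs are commonly used as a readout of ERK output. Egr1 and Fosl1 stand at the other end of the response, as transcription factors induced within minutes to hours of stimulation.

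The depth of the libraries and the identity of the tissue bear on what follows. The reads on genes ran from 18004977 to 44427184 per library for the livers, Aldafermin+MYC and FGF19+MYC tumors, which share a table, and from 54042455 to 66354724 for the sgTrp53+MYC tumors, which have a table of their own, so that table and group cannot be told apart. Trp53 stood at 28.8 to 36.4 CPM, the read count scaled to the reads on genes of each library with TMM factors, in liver, 90.8 to 176 in Aldafermin+MYC, 110 to 155 in FGF19+MYC and 18.7 to 79.9 in sgTrp53+MYC tumors. A cut in the gene need not remove its mRNA, so this level checks the labels only in part. The summed level of 5 hepatocyte markers was 166124 to 214927 CPM in liver and 2332 to 26013 CPM in the tumors, and in bulk RNA fewer cells of a type and less RNA per cell cannot be told apart. The library labelled sgTrp53+MYC replicate 2 stood apart: its 4 biliary epithelial markers summed to 312 CPM against 0.640 to 3.99 CPM in the other 4 libraries of its group, so values without it are given beside those results with that group that it changes.

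Of the 10 genes, 8 reached 1 CPM in at least 5 of the 20 libraries and were tested by edgeR's quasi-likelihood test among 14333 genes. Etv4 and Fosl1 did not and are described by their values. Scaled by exon length, as reads per kilobase of exon and per library total (RPKM), Dusp6 was the highest of the 10 in liver at 18 ± 12.1 RPKM (SD, n = 5). Egr1 followed at 9.06 ± 5.08 RPKM and Spred1 at 3.32 ± 0.399 RPKM. The mean RPKM in liver was between 0.0752 and 1.92 for Spry4, Spry1, Etv5, Spry2, Dusp4 and Etv4, and Fosl1 was at or under 3 reads in every liver, the limit that a count of 0 allows.

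Dusp6 encodes the cytoplasmic phosphatase that inactivates ERK. Its level, in CPM and in the order of replicates 1 to 5 here and for each gene that follows, was 101, 110, 33.5, 26.6 and 34.1 in liver and 15.6, 28.0, 35.5, 30.3 and 16.2 in Aldafermin+MYC tumors. It was 21.7, 29.97, 33.1, 27.9 and 39.5 CPM in FGF19+MYC tumors and 5.49, 82.3, 12, 16.4 and 7.92 CPM in sgTrp53+MYC tumors. Livers 1 and 2 were about as high as each other and well above livers 3, 4 and 5, which lay within the range of the hormone tumors, and 4 of the 5 sgTrp53+MYC tumors lay below every liver. Dusp6 was 2.43-fold lower than liver in Aldafermin+MYC tumors (log2 -1.28, SE 0.59, adjusted p = 0.0604) and 2.01-fold lower in FGF19+MYC tumors (adjusted p = 0.135), and neither passed the threshold of 0.05. In sgTrp53+MYC tumors the difference was -1.30 on the log2 scale (SE 0.59, adjusted p = 0.0570). Without replicate 2 it became -2.55 (SE 0.45, adjusted p = 6.63e-05), a 5.85-fold lower level with no overlap between the groups. Dusp6 also differed from liver in the hormone tumors in that fit, with adjusted p = 0.00770 for Aldafermin+MYC and 0.0299 for FGF19+MYC at the same fold changes and with an SE of 0.40 and 0.39. With all other libraries kept, Dusp6 also passed in Aldafermin+MYC tumors without Liver replicate 3, 4 or 5 or sgTrp53+MYC replicate 1 (adjusted p = 0.0490, 0.0407, 0.0497 and 0.0409), and in sgTrp53+MYC tumors without Liver replicate 3, 4 or 5 (adjusted p = 0.0462, 0.0387 and 0.0469).

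The promoter of Dusp6 is shown because this gene is the reference for the co-variation described further on. RefSeq places the window, 250 bases before to 50 bases after the transcript start, at chr10:99098843-99099142 on the plus strand of GRCm39, inside the gene that the annotation sets at chr10:99086564-99103361. Capitals mark the short motifs found on either strand, here the ETS core CGGAAG, read as CTTCCG, 62 to 57 bases before the start, and a CCAAT box, read as ATTGG, 46 to 42 bases before it.
Dusp6: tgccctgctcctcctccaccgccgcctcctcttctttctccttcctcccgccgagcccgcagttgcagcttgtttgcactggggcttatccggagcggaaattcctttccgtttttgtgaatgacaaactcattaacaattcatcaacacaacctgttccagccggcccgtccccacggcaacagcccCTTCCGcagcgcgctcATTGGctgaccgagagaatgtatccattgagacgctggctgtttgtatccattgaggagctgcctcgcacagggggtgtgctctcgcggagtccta
The ETS core occurs in 16.9% of the 32851 promoter windows of this length and the CCAAT box in 37.4%, so neither sets Dusp6 apart. The longer ETS site CCGGAAGT, which contains the core, had no match in this window. Neither had TGAATGAA and TGAATGGA, the only Capicua octamers searched, the AP-1 site TGAGTCA or the EGR site GCGGGGGCG. In that order these sites occur in 3.89%, 1.3%, 1.21%, 5.2% and 2.91% of windows. A missing match says only that these letters are absent from these 300 bases. Other forms of the Capicua octamer were not searched, so a Capicua site in this window is not excluded.

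Dusp4, the nuclear phosphatase of ERK, was close to the detection limit. Its level was 1.15, 1.03, 1.5, 0.273 and 0.558 CPM in liver and 0.437, 0.174, 1.79, 0.385 and 0.421 CPM in Aldafermin+MYC tumors. It was 0.223, 0.218, 1.21, 2.44 and 1.83 CPM in FGF19+MYC tumors and 0.198, 7.78, 0.473, 0.654 and 0.200 CPM in sgTrp53+MYC tumors. The groups overlapped throughout, and sgTrp53+MYC replicate 2, with 556 reads, was the highest of the 20 libraries, where no other library had more than 83. Dusp4 passed in no comparison, and its difference from liver in sgTrp53+MYC tumors changed from 1.04 with replicate 2 to -1.24 without it (adjusted p = 0.338 and 0.148).

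The Sprouty genes encode membrane-bound inhibitors that act between the receptor and RAF. Spry1 was at 9.75, 7.48, 7.82, 11.4 and 7.97 CPM in liver and at 11, 10.9, 18.9, 13.8 and 8.05 CPM in Aldafermin+MYC tumors. It was at 13.1, 11.5, 15.9, 15.9 and 15.5 CPM in FGF19+MYC tumors and at 3.05, 9.15, 5.10, 13.3 and 2.46 CPM in sgTrp53+MYC tumors. Every FGF19+MYC tumor was above every liver, with the lowest tumor close to the highest liver. The 1.62-fold difference did not pass the threshold (log2 0.70, SE 0.35, adjusted p = 0.0873). Between tumors, Spry1 was 2.17-fold higher in FGF19+MYC than in sgTrp53+MYC (log2 1.12, SE 0.35, adjusted p = 0.0382), and 2.40-fold higher without replicate 2 (log2 1.26, adjusted p = 0.0340). This call was lost, with adjusted p from 0.0686 to 0.0813, without FGF19+MYC replicate 3, 4 or 5 or sgTrp53+MYC replicate 1, 3 or 5. Without sgTrp53+MYC replicate 4, the highest Spry1 value of that group, Spry1 passed in 3 more comparisons: higher in FGF19+MYC tumors than in liver (adjusted p = 0.0451), lower in sgTrp53+MYC tumors than in liver (log2 -0.84, adjusted p = 0.0260) and higher in Aldafermin+MYC than in sgTrp53+MYC tumors (log2 1.34, adjusted p = 0.00823).

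Spry2 was narrow in liver and in FGF19+MYC tumors and wide in the other tumor groups. It was at 2.08, 1.61, 1.86, 2.19 and 1.35 CPM in liver and at 3.55, 2.03, 8.40, 1.19 and 4.83 CPM in Aldafermin+MYC tumors. It was at 3.91, 4.41, 4.94, 3.14 and 3.76 CPM in FGF19+MYC tumors and at 0.214, 9.66, 0.842, 2.70 and 0.706 CPM in sgTrp53+MYC tumors. All FGF19+MYC tumors were above all livers, while the lowest and the highest of the 20 values both came from the sgTrp53+MYC group. The 2.22-fold higher level in FGF19+MYC tumors than in liver had an adjusted p of 0.150, and the 2.21-fold higher level in Aldafermin+MYC tumors an adjusted p of 0.151. Without sgTrp53+MYC replicate 2, Spry2 was 3.60-fold higher in FGF19+MYC than in sgTrp53+MYC tumors (log2 1.85, SE 0.57, adjusted p = 0.0381) and 3.58-fold higher in Aldafermin+MYC tumors (log2 1.84, SE 0.57, adjusted p = 0.0339). With replicate 2 these differences were 0.51 and 0.50 on the log2 scale, with adjusted p = 0.660 and 0.651.

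Spry4 was the Sprouty gene with the highest liver level in CPM. It was at 15.6, 20.1, 6.36, 9.36 and 12 CPM in liver and at 3.16, 11.2, 17.4, 5.92 and 2.50 CPM in Aldafermin+MYC tumors. It was at 4.69, 6.30, 8.84, 7.13 and 9.88 CPM in FGF19+MYC tumors and at 1.40, 25.7, 3.01, 4.52 and 2.42 CPM in sgTrp53+MYC tumors. As for Dusp6, livers 1 and 2 were the highest livers, and the sgTrp53+MYC tumors other than replicate 2 lay below every liver. No comparison of Spry4 passed with all libraries. Without replicate 2 it was 4.46-fold lower than liver in sgTrp53+MYC tumors (log2 -2.16, SE 0.52, adjusted p = 0.00125) and 2.83-fold higher in Aldafermin+MYC than in sgTrp53+MYC tumors (log2 1.5, SE 0.51, adjusted p = 0.0499).

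Spred1 is a Sprouty-related inhibitor that recruits the RAS inactivator neurofibromin to the membrane. Its level set the sgTrp53+MYC tumors apart from both hormone groups, which did not pass as different from each other. It was at 27.1, 29.5, 24.9, 21.1 and 26.3 CPM in liver and at 26.8, 38.5, 33.7, 34.3 and 26.9 CPM in Aldafermin+MYC tumors. It was at 28.4, 35.1, 43.3, 49.6 and 33.1 CPM in FGF19+MYC tumors and at 4.96, 18.1, 6.45, 10.1 and 3.33 CPM in sgTrp53+MYC tumors. All 5 sgTrp53+MYC tumors, replicate 2 included, lay below all other 15 libraries, and the liver and hormone tumor values overlapped.

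The level of Spred1 in sgTrp53+MYC tumors was 3.00-fold lower than in liver (log2 -1.58, SE 0.32, adjusted p = 1.99e-04). It was 3.73-fold higher in Aldafermin+MYC than in sgTrp53+MYC tumors (log2 1.90, SE 0.32, adjusted p = 6.83e-04) and 4.40-fold higher in FGF19+MYC than in sgTrp53+MYC tumors (log2 2.14, SE 0.32, adjusted p = 3.03e-04). Without replicate 2 these became 4.14-fold, 5.15-fold and 6.09-fold. Spred1 kept these 3 calls when any of the 20 libraries was left out, and its call against liver was lost when library size alone set the scale. The summed level of 6 macrophage markers was low in the same group, at 83.7 to 165 CPM in sgTrp53+MYC, 151 to 457 CPM in Aldafermin+MYC, 265 to 481 CPM in FGF19+MYC and 347 to 541 CPM in liver, and all 6 markers were detected. Of the macrophage markers, 5 of 6 passed as lower than liver in sgTrp53+MYC tumors and 1 as higher, with and without replicate 2. The higher one was Cd68, at 36.6 ± 6.15 CPM beside 16.9 ± 2.21 CPM in liver (SD, n = 5). Against sgTrp53+MYC tumors, 4 of 6 passed as higher in Aldafermin+MYC and 3 of 6 in FGF19+MYC tumors (3 and 2 without replicate 2), and the mean of each of the 6 was higher in both hormone groups. Their part in the Spred1 difference was not tested.

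Because Spred1 set the sgTrp53+MYC tumors apart, its promoter is shown, at chr2:116951302-116951601 on the plus strand of GRCm39. The promoter of Spry1, the other member called between tumor groups, is shown too, at chr3:37693846-37694145 on the plus strand. Capitals mark the ETS core (CGGAAG or CTTCCG), the GC box GGGCGG or its complement CCGCCC, and the CCAAT box (or ATTGG).
Spred1: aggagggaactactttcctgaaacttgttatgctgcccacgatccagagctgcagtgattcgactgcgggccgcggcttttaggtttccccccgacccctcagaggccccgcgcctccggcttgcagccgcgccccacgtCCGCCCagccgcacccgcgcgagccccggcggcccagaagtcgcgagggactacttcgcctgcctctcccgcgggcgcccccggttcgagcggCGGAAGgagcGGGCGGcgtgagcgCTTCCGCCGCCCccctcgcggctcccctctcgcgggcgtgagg
Spry1: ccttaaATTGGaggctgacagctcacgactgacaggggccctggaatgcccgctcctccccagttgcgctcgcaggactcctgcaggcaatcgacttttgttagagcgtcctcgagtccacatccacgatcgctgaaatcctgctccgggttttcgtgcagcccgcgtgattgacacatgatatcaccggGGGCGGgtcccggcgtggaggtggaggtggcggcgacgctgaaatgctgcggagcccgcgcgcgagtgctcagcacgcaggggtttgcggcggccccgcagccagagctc
The Spred1 window holds the ETS core at 17 to 12 bases before and 7 to 12 bases after the start and 3 GC boxes, 1 of which follows directly on an ETS core. The Spry1 window holds 1 GC box and 1 CCAAT box and neither CGGAAG nor CTTCCG, although the shorter GGAA, which was not searched, occurs in it. GC boxes occur in 35.7% of all windows. RefSeq windows were also found for Spry2, at chr14:106134204-106134503 on the minus strand, and at 2 starts of Etv5, but Dusp4, Etv4, Fosl1, Egr1 and Spry4 have none shown here.

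Etv5 and Etv4 are ETS transcription factors of the PEA3 group, which carry FGF signals to their target genes. Etv5 was at 7.60, 6.09, 7.07, 6.49 and 4.14 CPM in liver and at 10.03, 20.9, 20.4, 7.65 and 8.61 CPM in Aldafermin+MYC tumors. It was at 9.27, 14, 15.3, 14.3 and 10.5 CPM in FGF19+MYC tumors and at 0.906, 7.84, 1.87, 12.8 and 1.41 CPM in sgTrp53+MYC tumors. Every hormone tumor was above every liver, although Aldafermin+MYC replicate 4 exceeded the highest liver only slightly. The sgTrp53+MYC tumors split, with 3 far below liver and replicates 2 and 4 above its maximum. Etv5 was 2.16-fold higher than liver in Aldafermin+MYC tumors (log2 1.11, SE 0.54, adjusted p = 0.0750) and 2.02-fold higher in FGF19+MYC tumors (log2 1.02, SE 0.54, adjusted p = 0.102), and neither passed. Against sgTrp53+MYC tumors the log2 differences were 1.45 (adjusted p = 0.0705) for Aldafermin+MYC and 1.36 (adjusted p = 0.0942) for FGF19+MYC. Replicate 4 decided these: without it they were 2.17 (adjusted p = 0.00719) and 2.08 (adjusted p = 0.00976). Without replicate 2 they were 1.67 (adjusted p = 0.0591) and 1.58 (adjusted p = 0.0800). Against liver, Etv5 passed in Aldafermin+MYC tumors without sgTrp53+MYC replicate 1 or 4 (adjusted p = 0.0410 and 0.0384).

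Etv4 was at 0.287, 0.257, 0.353, 0.137 and 0.159 CPM in liver, or 2 to 8 reads. It was at 0.486, 0.496, 1.36, 0.423 and 0.196 CPM in Aldafermin+MYC and at 0.614, 0.510, 0.269, 0.323 and 0.492 CPM in FGF19+MYC tumors. In sgTrp53+MYC tumors it was at 0.231, 20.7, 0.150, 0.163 and 0.399 CPM, so that 1481 of the reads came from replicate 2 and no other library of the series had more than 51. Without a filter on low counts Etv4 passed against liver in that group (adjusted p = 0.00286), where most of the group's reads are from replicate 2, and that fit was not run without it.

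Egr1, a zinc finger factor induced within minutes of ERK activation, was the member that passed most often against liver. It was at 75.5, 51.7, 24.9, 31.8 and 19.96 CPM in liver and at 3.01, 3.67, 9.15, 8.08 and 2.61 CPM in Aldafermin+MYC tumors. It was at 6.59, 8.23, 8.08, 12 and 21.9 CPM in FGF19+MYC tumors and at 2.42, 30.8, 27.0, 13.5 and 2.93 CPM in sgTrp53+MYC tumors. All Aldafermin+MYC tumors lay below all livers, a single FGF19+MYC tumor reached above the lowest liver, and the sgTrp53+MYC group overlapped with liver in replicates 2 and 3. Egr1 was 7.69-fold lower than liver in Aldafermin+MYC (log2 -2.94, SE 0.65, adjusted p = 4.91e-04), 3.57-fold lower in FGF19+MYC (log2 -1.84, SE 0.62, adjusted p = 0.0129) and 2.65-fold lower in sgTrp53+MYC tumors (log2 -1.41, SE 0.61, adjusted p = 0.0463). The first and second calls held when any 1 library was left out, and the second was lost when library size alone set the scale. The third was lost in 11 of 20 such fits, with adjusted p up to 0.141 without Liver replicate 1. The other libraries whose removal ended it were Liver replicates 2 and 4, sgTrp53+MYC replicates 1, 4 and 5, Aldafermin+MYC replicates 2 and 5, and FGF19+MYC replicates 2, 3 and 4. Without sgTrp53+MYC replicate 2 it was 3.55-fold lower (log2 -1.83, SE 0.65, adjusted p = 0.0178). The summed level of 6 endothelial markers was also lower in tumors, at 220 to 357 CPM in liver, 55.6 to 173 in Aldafermin+MYC, 75.9 to 178 in FGF19+MYC and 51.9 to 132 CPM in sgTrp53+MYC tumors. Of these markers 4, 3 and 4 passed as lower than liver in the tumor groups, the last count being 3 without replicate 2. The means of Kdr, Stab2, Lyve1 and Clec4g were lower than in liver in every tumor group. Pecam1 averaged 29.1 CPM in liver and 33.2, 28.0 and 20.9 CPM in Aldafermin+MYC, FGF19+MYC and sgTrp53+MYC tumors. Cdh5 averaged 39.9 CPM in liver and 41.6, 43.2 and 26.1 CPM in these groups, so the lower sum does not hold for each marker. The part of the 6 markers in the Egr1 difference was not tested.

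Fosl1, an AP-1 subunit made in response to sustained ERK activity, was read 0, 3, 0, 1 and 0 times in the livers. It was at 0.243, 0.0496, 0.507, 0 and 0.196 CPM in Aldafermin+MYC and at 0.167, 0.437, 0.0898, 0.704 and 0 CPM in FGF19+MYC tumors. In sgTrp53+MYC tumors it was at 0.0329, 15.3, 0.0346, 0.123 and 0.0307 CPM, with 1090 reads in replicate 2 and at most 24 in any other library. No fold against liver is given, and Fosl1 could not be distinguished between the groups outside replicate 2 at this depth.

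**Figure D1:**
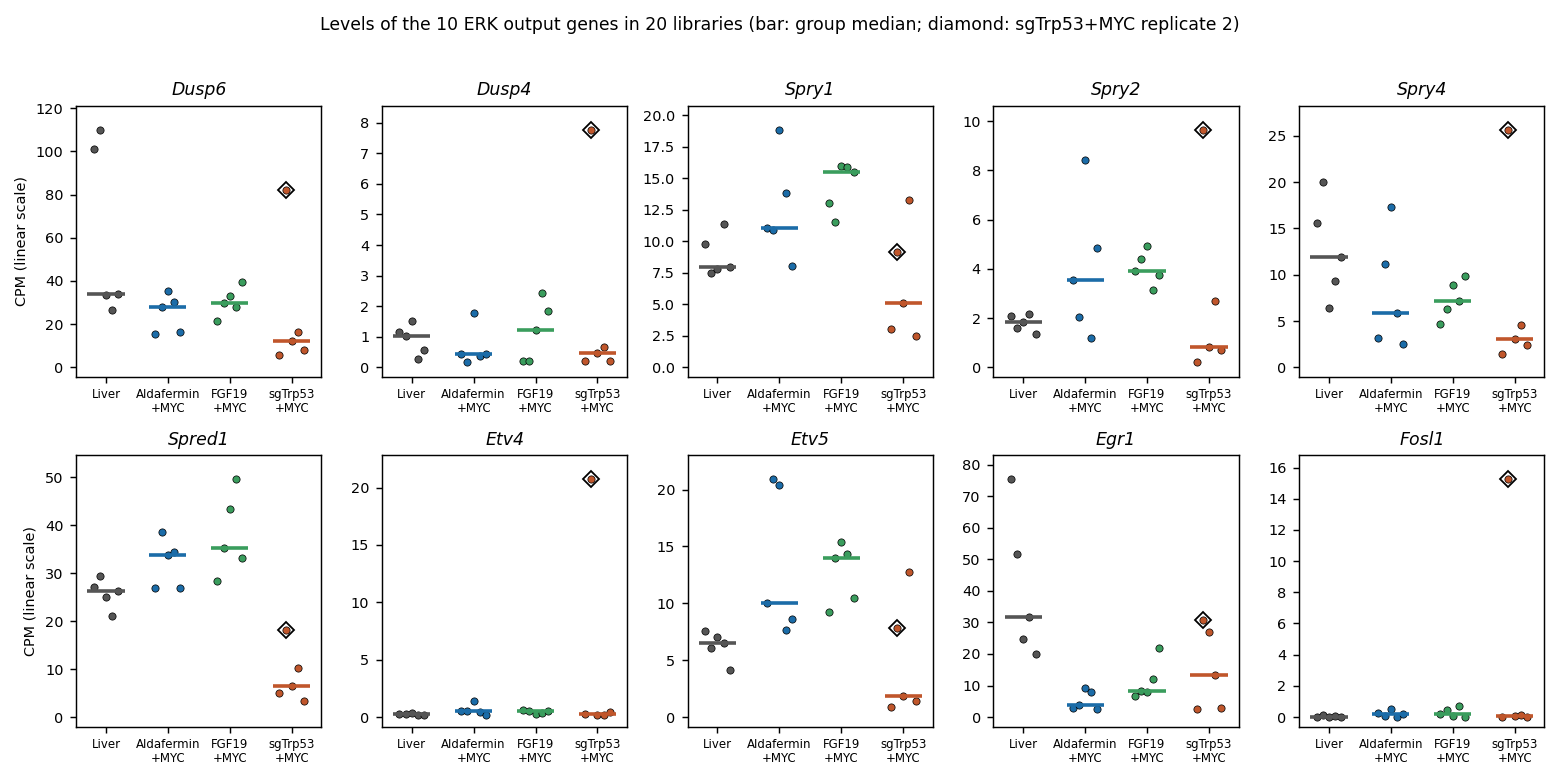
Level of each of the 10 genes in the 20 libraries, on a linear CPM axis that starts near 0 and differs between panels. Each point is a library, the bar is the median of its group of 5, and the diamond marks sgTrp53+MYC replicate 2, which is the highest of all 20 libraries for Dusp4, Spry2, Spry4, Etv4 and Fosl1. Spred1 in sgTrp53+MYC lies below every other library, and Egr1 in Aldafermin+MYC below every liver.

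Set against the tumor transcriptome as a whole, few of these genes differed from liver. In Aldafermin+MYC tumors 1 of the 8 tested passed (Egr1, lower), where 70.3% of all tested genes were called, 38.4% higher and 31.9% lower. In FGF19+MYC tumors 1 of 8 passed (Egr1, lower), with 69.7% of all genes called, 36.9% higher and 32.9% lower. In sgTrp53+MYC tumors 2 of 8 passed (Spred1 and Egr1, both lower), with 69.9% of all genes called, 36.9% higher and 33% lower. With TMM factors and all 20 libraries in 1 fit, no member passed as higher than liver in any tumor group. The median log2 difference of the 8 genes was -0.09, 0.48 and -0.60 in the 3 groups in that order, beside 0.13, 0.06 and 0.07 over all 14333 genes. Leaving out sgTrp53+MYC replicate 2 raised the counts to 2 of 8 (70.4% of all genes called), 3 of 8 (69.7%) and 4 of 8 (68.2%). The added calls were Dusp6 in all 3 comparisons, Spred1 in FGF19+MYC tumors, where it was higher, and Spry4 in sgTrp53+MYC tumors. With library size alone as the scale, the median over all genes moved to 0.97, 0.91 and 0.95, and 5, 4 and 0 of the 8 genes passed. The 3 comparisons share the same 5 livers.

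The counts also changed with the groups that entered the fit. When FGF19+MYC tumors and livers were fitted alone, without the widely spread sgTrp53+MYC group, 7 of 8 genes passed, and 75.4% of all genes did. Dusp6 (log2 -1.07), Spry4 (-0.85) and Egr1 (-1.90) were then lower than liver, and Etv5 (0.94), Spred1 (0.48), Spry1 (0.63) and Spry2 (1.08) were higher, with adjusted p from 6.18e-04 to 0.0249. When Aldafermin+MYC tumors and livers were fitted alone, 4 of 8 passed, with Dusp6 and Egr1 lower and Etv5 and Spry2 higher, beside 71.5% of all genes. For sgTrp53+MYC tumors and livers alone, 1 of 8 passed, Spred1, beside 69.4% of all genes.

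**Figure D2:**
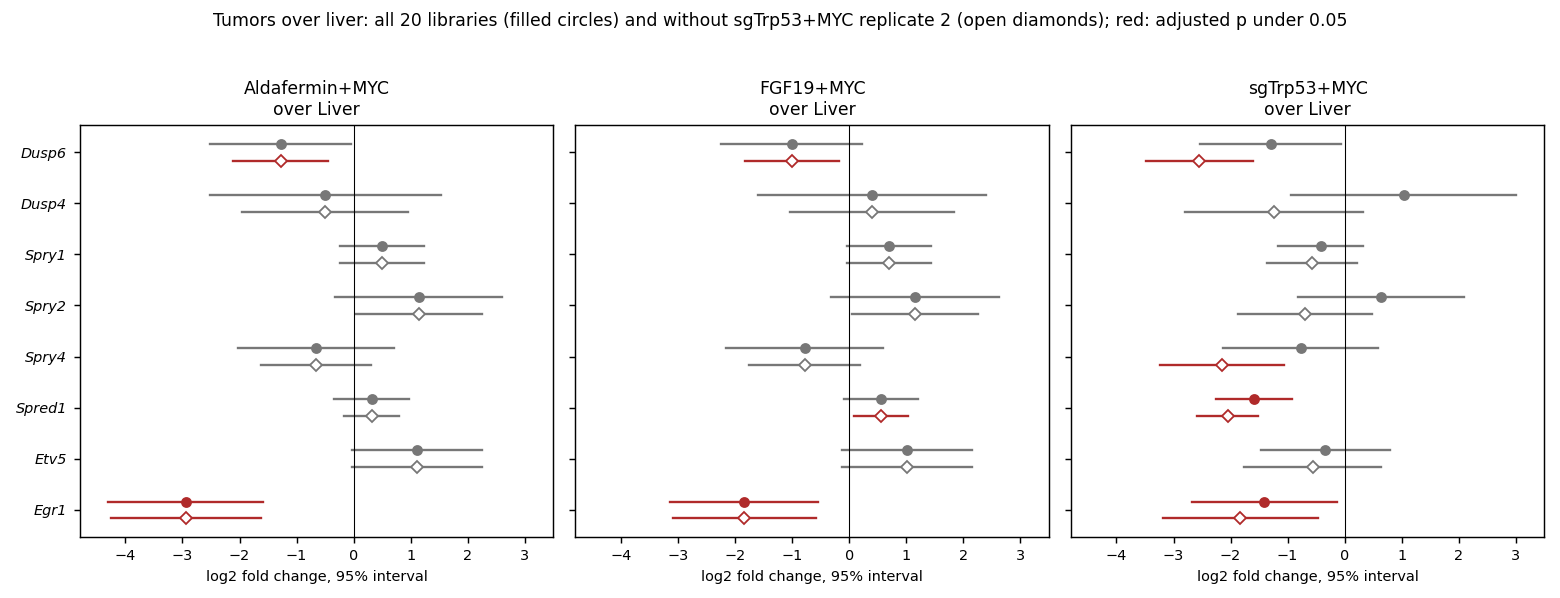
log2 fold change of the 8 tested genes in each tumor group over liver, with 95% intervals, from all 20 libraries (filled circles) and without sgTrp53+MYC replicate 2 (open diamonds). Red marks an adjusted p under 0.05. Egr1 is red in all panels, at -2.94, -1.84 and -1.41 with all libraries, and Dusp4 and Spry2 move to the other side of 0 in the sgTrp53+MYC panel when replicate 2 is left out.

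The design also asks whether the engineered hormone and its parent left the same ERK output in MYC tumors. Aldafermin differs from FGF19 by a deletion and substitutions near the N-terminus, both were given with the same MYC plasmid, and their tumors share a count table. None of the 8 genes passed between them, and edgeR's quasi-likelihood test called 0% of all 14333 genes. At an unadjusted p under 0.05 there were 1048 genes, and DESeq2 called 96. The largest difference among the 8 was that of Egr1, 2.15-fold lower in Aldafermin+MYC (log2 -1.11, SE 0.61, 95% interval -2.39 to 0.18, adjusted p = 0.778). Dusp4 was lower by a similar amount and with a wider interval, from -2.88 to 1.09 (log2 -0.90). Of the other genes, the interval of the log2 difference ran from -1.50 to 0.95 for Dusp6, from -0.93 to 0.54 for Spry1, from -1.43 to 1.42 for Spry2 and from -1.24 to 1.49 for Spry4. It ran from -0.89 to 0.41 for Spred1 and from -1.02 to 1.20 for Etv5. The intervals are narrowest for Spred1 and Spry1 and leave wide differences possible for the rest, so equal output is not shown. Without sgTrp53+MYC replicate 2, which is in neither group but enters the shared spread, 0 of 8 genes passed and 0.0209% of all genes did.

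Against sgTrp53+MYC tumors, which carry MYC without either hormone, 1 of 8 genes passed in Aldafermin+MYC tumors (Spred1, higher) beside 17.7% of all genes, 10.2% higher and 7.53% lower. In FGF19+MYC tumors 2 of 8 passed (Spred1 and Spry1, both higher) beside 15.8% of all genes, 7.97% higher and 7.78% lower. Without replicate 2 each count became 4 of 8, beside 16.4% and 14% of all genes. These were Spred1, Dusp6, Spry2 and Spry4 for Aldafermin+MYC and Spred1, Dusp6, Spry1 and Spry2 for FGF19+MYC, all of them higher in the hormone tumors. Dusp6 was then 2.40-fold higher in Aldafermin+MYC (log2 1.27, SE 0.43, adjusted p = 0.0499) and 2.91-fold higher in FGF19+MYC tumors (log2 1.54, SE 0.43, adjusted p = 0.0234), where with replicate 2 it was 0.02 and 0.29 on the log2 scale. With only the compared groups in the fit, Spred1 alone passed in each, beside 7.5% and 10% of all genes. Both comparisons share the sgTrp53+MYC libraries and cross the 2 count tables, and Egr1 went the other way, at -1.53 for Aldafermin+MYC (adjusted p = 0.0908, and 0.0310 without sgTrp53+MYC replicate 1) and -0.43 for FGF19+MYC (adjusted p = 0.681).

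**Figure D3:**
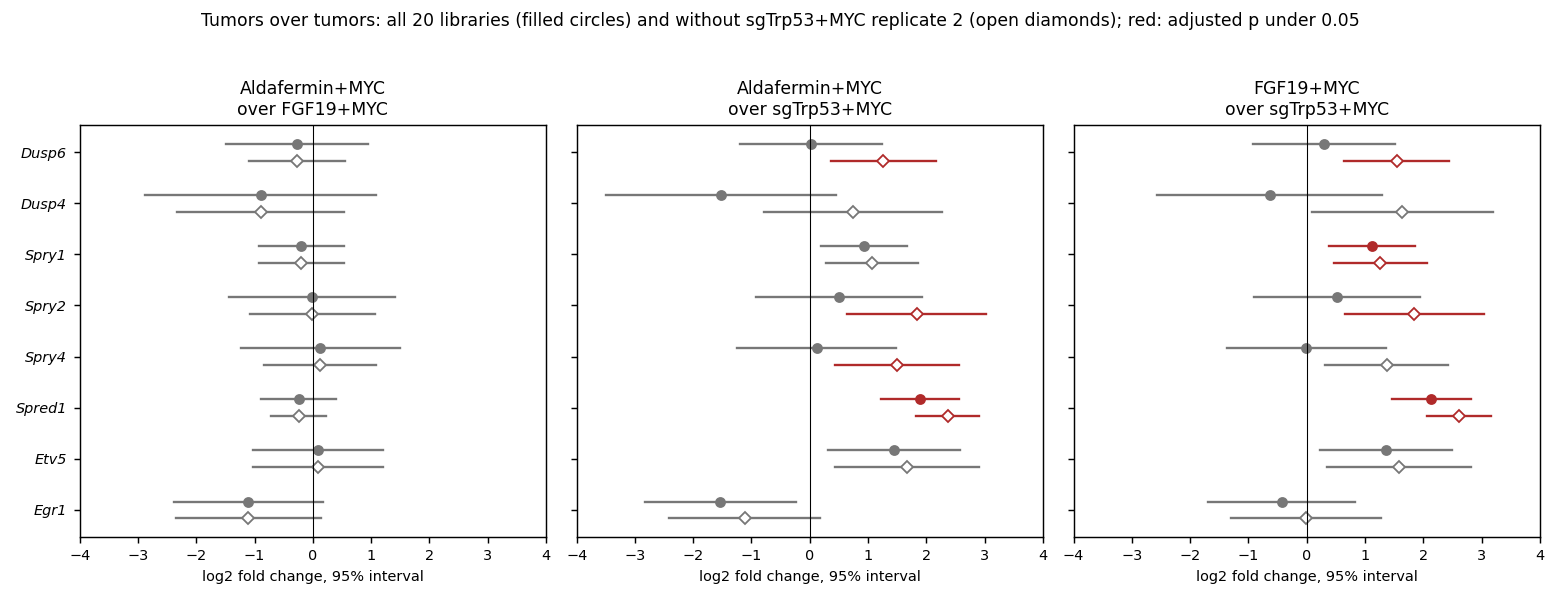
log2 fold change of the 8 tested genes between tumor groups, with 95% intervals, from all 20 libraries (filled circles) and without sgTrp53+MYC replicate 2 (open diamonds). Red marks an adjusted p under 0.05. Spred1 is red at 1.90 and 2.14 over sgTrp53+MYC, and no gene is red between Aldafermin+MYC and FGF19+MYC.

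sgTrp53+MYC replicate 2 differed from the rest of its group more at some of these genes than at others. Fosl1 was 124-fold above the highest of the other 4 libraries, the 4th largest gap of 14335 genes ranked, and Etv4 was 51.9-fold above, the 15th largest. Fosl1 and Etv4 were ranked although they did not reach the level required for testing. Other genes under that level were not ranked, among them Areg at 433-fold and Ereg at 30.4-fold. The ranks given here therefore do not hold among all genes. Dusp4 was 11.9-fold above (rank 48), Spry4 5.68-fold (rank 103), Dusp6 5.02-fold (rank 123) and Spry2 3.58-fold (rank 174). Spred1 was 1.79-fold and Egr1 1.14-fold above, and Spry1 and Etv5 lay inside the range of the other 4. Among genes named after their values were seen, 5 encode EGF receptor ligands. Areg, Ereg and Btc were at 35.7, 9.03 and 12.4 CPM in replicate 2 and at most 0.0824, 0.296 and 0.494 CPM in the other 4. Tgfa was at 11.8 against at most 8.35 CPM, and Hbegf, at 7.42 CPM, lay inside the range of the other 4, whose highest value was 10.3 CPM. The biliary markers Krt7 and Krt19 were at 80.9 and 191 CPM against at most 0.265 and 2.33 CPM, and Trp53 was at 79.9 CPM against at most 51.0 CPM. The hepatocyte markers summed to 2351 CPM there and to 2332 to 8583 CPM in the other 4. The part of these markers in the levels of the ERK output genes was not tested.

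**Figure D4:**
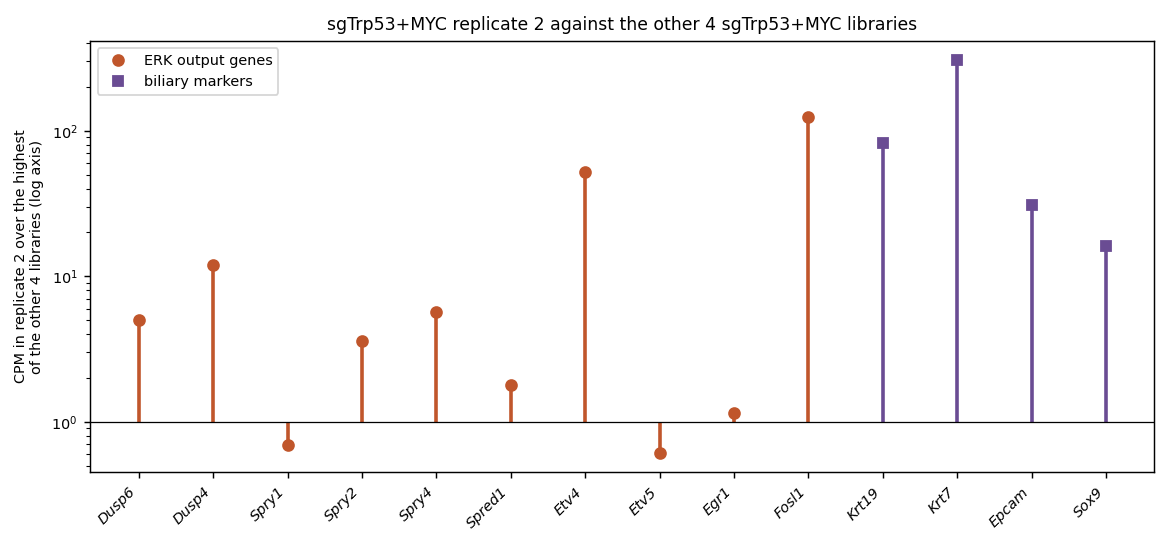
CPM in sgTrp53+MYC replicate 2 divided by the highest CPM of the other 4 libraries of its group, on a log axis, for the 10 ERK output genes (circles) and 4 biliary markers (squares). A value of 1 is the line. Fosl1 stands at 124 and Etv4 at 51.9, near the biliary markers, while Spry1 and Etv5 fall below 1.

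Within tumor groups, the genes tended to vary in the same direction. For each of the 15 tumors the log2 CPM was taken relative to the mean of its group, which removes differences between groups, and the 28 pairs of the 8 tested genes were correlated over tumors with permutations within groups. Pearson's r was positive in 28 of 28 pairs, with a median of 0.717 and a range from 0.522 to 0.938, and 15 passed at an adjusted p under 0.05 (17 by Spearman's rho). The share of such pairs among other genes was not computed, so these counts are not shown to be particular to the members. The closest pair was Dusp6 with Spry4, at r = 0.938 and rho = 0.932 (permutation p = 2.00e-05 and 4.00e-05, adjusted p = 5.60e-04 and 0.00112), and r was 0.875 without the 2 tumors farthest from the median of Dusp6. By Pearson's r the next gene for Dusp6 was Spred1, at r = 0.856 and rho = 0.743 (adjusted p = 0.0251 and 0.0214, permutation test), with r = 0.711 without the 2 farthest tumors. By rho, Egr1 (0.814) and Spry1 (0.771) were closer to Dusp6 than Spred1 was. Spry1 had its highest r with Etv5, at r = 0.850 and rho = 0.650 (adjusted p = 0.0335 and 0.0752, permutation test), with r = 0.751 without the 2 farthest tumors. Its rho was higher with Dusp6 (0.771), Spred1 (0.768), Egr1 (0.754), Dusp4 (0.729) and Spry4 (0.725), and without the 2 farthest tumors its r was higher with Spry4 (0.878) and Egr1 (0.808).

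The number of pairs that passed rested on single libraries. Without replicate 2 of the sgTrp53+MYC group 8 of 28 passed, with a median r of 0.586 and all 28 positive, and 1, 7 and 3 passed without its replicates 1, 3 and 5. Without Aldafermin+MYC replicate 3, 4 passed. In the 10 tumors of the shared table, Aldafermin+MYC and FGF19+MYC, r was positive in 25 of 28 pairs with a median of 0.438, and none passed. Dusp6 with Spry4 was r = 0.883 (rho = 0.868, adjusted p = 0.00420, permutation test) without replicate 2. In the 10 tumors it was r = 0.902 (rho = 0.867, permutation p = 0.00347, adjusted p = 0.0972).

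**Figure D5:**
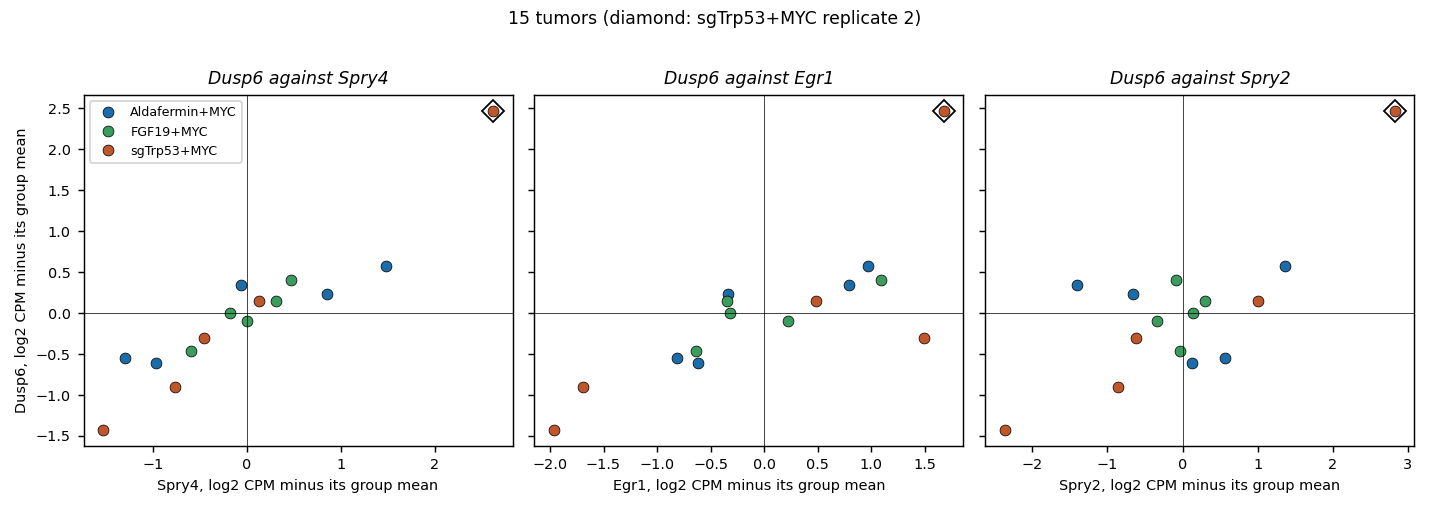
Dusp6 against Spry4, Egr1 and Spry2 in 15 tumors, each as log2 CPM minus the mean of its tumor group, with the diamond marking sgTrp53+MYC replicate 2. Spry4 lies close to a line with Dusp6 (r = 0.938), and Spry2 is more scattered (r = 0.762, and 0.448 without replicate 2).

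Ranked by this r over 14332 other genes, those closest to Dusp6 in the 15 tumors were Epha2, an ephrin receptor (0.970), Spry4 (0.938) and Cd44, a hyaluronan receptor (0.936). Spred1 ranked 60, Dusp4 171, Egr1 173, Spry2 192, Etv5 330 and Spry1 335. Without replicate 2 the closest 3 were Cd5l (0.969), Ikbke (0.956) and Col18a1 (0.931), and Spry4 ranked 44. The ranks of the others were then 228 for Egr1, 467 for Spry1, 1227 for Etv5, 1742 for Spred1, 3671 for Dusp4 and 4171 for Spry2. Cd5l is a gene of tissue macrophages. These likenesses are descriptions over 15 or 14 tumors of which those of a group share a table.

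Genes of a further list, other feedback and output genes of ERK, differed from liver in both directions. Of 14 further feedback and output genes 10 were tested, and in each tumor group 4 passed as higher and 2 as lower than liver, 6 of 10 beside 70.3%, 69.7% and 69.9% of all tested genes called. Dusp9, a further ERK phosphatase, was at 0.560 ± 0.428 CPM in liver (SD, n = 5) and at 294 ± 118, 382 ± 65.9 and 194 ± 105 CPM in Aldafermin+MYC, FGF19+MYC and sgTrp53+MYC tumors, with log2 differences of 9.08, 9.46 and 8.48 (adjusted p = 2.73e-11, 1.78e-11 and 4.80e-11). Dusp7, of the same phosphatase family, rose by 2.03, 2.13 and 1.83 on the log2 scale (adjusted p = 1.77e-06, 1.05e-06 and 5.88e-06). Spry3 was at or under 3 reads in every liver and at 1.68 ± 0.855, 4.27 ± 2.44 and 7.68 ± 4.95 CPM in the tumor groups, and was lower in Aldafermin+MYC than in sgTrp53+MYC tumors by 2.20 (adjusted p = 0.0210). Phlda1, which restrains AKT signalling, was at 67.0 ± 14.6 CPM in liver and fell by 3.94, 3.94 and 3.75 on the log2 scale. Ccnd1, the cyclin D1 gene that growth factors induce, was at 221 ± 130 CPM in liver and fell by 2.35, 1.93 and 2.93. The median log2 difference of this list was 0.69, 0.98 and 1.61 beside 0.13, 0.06 and 0.07 over all genes, and in sgTrp53+MYC tumors it was -0.05 without replicate 2. Without that library Epha2 passed as lower than liver in sgTrp53+MYC tumors (log2 -1.94, adjusted p = 5.63e-04) and as higher in both hormone groups than in sgTrp53+MYC tumors (1.99 and 1.82). Ier3, an early response gene, then passed as higher in FGF19+MYC tumors than in liver (log2 1.1, adjusted p = 0.0387) and than in sgTrp53+MYC tumors (1.68, adjusted p = 0.0297).

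Genes of the cascade itself differed from liver in both directions. All 24 adaptors, GTPases and kinases listed were tested, and 5 were higher and 6 lower than liver in Aldafermin+MYC, 4 and 7 in FGF19+MYC, and 6 and 7 in sgTrp53+MYC tumors. These are 11, 11 and 13 of 24, beside the same 70.3%, 69.7% and 69.9% of all genes. The RAS gene Nras rose by 1.27, 1.26 and 1.52 on the log2 scale (adjusted p = 2.82e-07, 3.10e-07 and 2.42e-08). Rps6ka3, which encodes the ERK-activated kinase RSK2, rose by 1.02, 0.99 and 1.15. The RAF kinase gene Araf fell by 0.60, 0.68 and 0.74, the adaptor Gab1 by 2.51, 1.44 and 2.07, and the MEK2 gene Map2k2 by 0.59, 0.62 and 1.1. Mapk3, which encodes an ERK kinase, differed from liver by 0.41, 0.33 and 0.24 on the log2 scale and did not pass (adjusted p = 0.0660, 0.138 and 0.266). Between tumors, where 4 of 24 passed for Aldafermin+MYC and 3 of 24 for FGF19+MYC beside 17.7% and 15.8% of all genes, Hras was higher than in sgTrp53+MYC by 0.89 in Aldafermin+MYC (adjusted p = 2.91e-04) and 0.84 in FGF19+MYC (adjusted p = 5.02e-04), Map2k2 was higher by 0.52 and 0.49, and the RAS inactivator Rasa1 was lower by 0.49 and 0.54. The FGF receptor substrate Frs2 was lower by 0.73 in Aldafermin+MYC tumors (adjusted p = 0.0118). Without sgTrp53+MYC replicate 2 these between-tumor counts did not change, while in sgTrp53+MYC tumors against liver Rasa1 no longer passed (adjusted p = 0.0644) and Frs2 did (log2 0.54, adjusted p = 0.0140).

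Among 15 other immediate response genes, 14 were tested. Against liver 5, 6 and 4 were higher and 2, 2 and 3 lower in Aldafermin+MYC, FGF19+MYC and sgTrp53+MYC tumors, or 7, 8 and 7 of 14 beside 70.3%, 69.7% and 69.9% of all genes. Zfp36, which destabilizes cytokine mRNAs, was at 177 ± 41.3 CPM in liver and fell by 2.44, 2.21 and 3.17 on the log2 scale, and Dusp1, a phosphatase for JNK and p38, fell by 2.36, 2.36 and 2.93. Ier5, an early growth response gene, rose by 1.52, 1.88 and 1.69, the stress factor gene Atf3 by 2.61, 3.28 and 1.5, and the zinc finger gene Klf6 by 0.87, 1.33 and 1.14. Fos, the classical partner of Jun in AP-1, was at 2.69 ± 1.43 CPM in liver and 1.49 to 3.34 CPM on average in the tumors and passed in no comparison with all libraries. Without sgTrp53+MYC replicate 2, Fos was lower than liver in that group (log2 -1.42, adjusted p = 0.0348) and higher in Aldafermin+MYC than in sgTrp53+MYC tumors (log2 1.74, adjusted p = 0.0460). Jun was at 26.8 ± 9.56 CPM in liver, 40.8 ± 20.3 in Aldafermin+MYC, 86.7 ± 28.7 in FGF19+MYC and 32.6 ± 7.62 CPM in sgTrp53+MYC tumors. It was higher in FGF19+MYC than in liver by 1.69 (adjusted p = 1.79e-04) and than in sgTrp53+MYC tumors by 1.41 (adjusted p = 0.00730), while its difference between Aldafermin+MYC and FGF19+MYC, -1.09, had an adjusted p of 0.353. Zfp36 was higher than in sgTrp53+MYC by 0.73 in Aldafermin+MYC and 0.96 in FGF19+MYC tumors, and Atf3 by 1.78 in FGF19+MYC tumors. In all, 1 and 3 of 14 passed in these comparisons, beside 17.7% and 15.8% of all genes, and 2 and 5 did without replicate 2.

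Of 10 nuclear factors that ERK acts on, all were tested, and 3, 3 and 2 were higher and 2, 1 and 2 lower than liver in the same order, or 5, 4 and 4 of 10 beside 70.3%, 69.7% and 69.9% of all genes. The ETS factor gene Elk4 fell by 1.86, 1.49 and 1.58 on the log2 scale (adjusted p = 3.43e-05, 3.21e-04 and 1.63e-04), and Ets1 by 1.51 in Aldafermin+MYC and 1.18 in sgTrp53+MYC tumors. Erf, an ETS repressor that ERK moves out of the nucleus, rose by 0.64 and 0.77 in the hormone tumors and was 0.65 higher in FGF19+MYC than in sgTrp53+MYC tumors (adjusted p = 0.0273, and 0.0544 without replicate 2). Ets2 rose by 0.61, 0.79 and 1.02, and Srf, the serum response factor, by 0.65, 0.75 and 0.52. In sgTrp53+MYC tumors Srf no longer passed without replicate 2 (adjusted p = 0.0520), and Elk3, an ETS factor gene, then passed as lower than liver (log2 -1.08, adjusted p = 0.00539). Cic, the repressor of Etv4, Etv5 and Dusp6, was at 61.3 ± 7.74 CPM in liver and 57.3 to 67.7 CPM on average in the tumor groups. Its log2 differences from liver were 0.14, 0.12 and -0.10, with adjusted p from 0.687 to 0.790.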

How the data were processed

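Gene counts of 20 libraries were analysed. Per the labels and the study's methods, the authors made poly(A) libraries with a stranded TruSeq kit, demultiplexed them with bcl2fastq 2.20.0.422, aligned them with HISAT2 to mm39 and counted reads per RefSeq gene with htseq-count, and the deposited values are raw counts in 2 tables. The 5 summary lines of htseq-count, 41.5% to 56.2% of reads in the first table and 33.7% to 40.8% in the second, were left out. The study's methods do not state whether the counting used the strand. If it did not, overlaps count as ambiguous, which can touch Dusp6 (Gm34921) and Fosl1 (Ccdc85b), both overlapped on the opposite strand. Ambiguous reads made up 3.03% to 6.30% of reads in the first table and 11.1% to 14.6% in the second. Reads not aligned made up 15.3% to 34.0% and 5.34% to 6.82%. The part of these shares in the differences between sgTrp53+MYC tumors and the other groups was not tested. Depth, as reads on genes, ran from 18004977 to 66354724, and intervals and floors cover counting error only where no replicates are named. The members and lists were chosen with earlier results of these data known.

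Genes with 1 CPM or more in at least 5 libraries (14333 of 50559) were tested with edgeR 4.0.16 (TMM factors, glmQLFit, glmQLFTest, 4 groups in 1 fit, R 4.3.3) in 6 pairwise comparisons, with Benjamini-Hochberg adjustment over all tested genes and a threshold of 0.05. Tests were two-sided, and log2 fold changes have SE and 95% intervals. On simulated counts for Aldafermin+MYC against Liver over 14333 genes, the test found 35 of 100 genes changed by 1 on the log2 scale and 75 of 100 changed by 2, with 3 false calls. All other genes were left unchanged in the simulation, while 70.3% were called in the real comparison. The adjusted threshold depends on that share, so the found shares do not carry over to the real comparison. Alternatives were DESeq2 1.42.0, a likelihood ratio test with tagwise dispersion, RLE factors, library size alone, no filter, filterByExpr, only the compared groups, the replicate number as a block, GC content and exon length (sgTrp53+MYC comparisons, 96.6% of genes with values), each library left out and, added after seeing the data, robust dispersion. Correlations used log2 CPM (prior count 2) and 100000 permutations within groups, adjusted over 28 pairs. Exon lengths and coordinates came from GENCODE M39 on GRCm39. Promoter windows came from RefSeq's table, whose build is GRCm38, and were placed on GRCm39 by exact match. Besides the 10 members, the genes named were, per list and comparison, the 2 with the smallest adjusted p in each direction, and Fos, Jun, Ccnd1, Mapk3 and Cic. Some genes that this rule names are not reported here. No 2 libraries of a group agreed within sampling noise (chi-square per degree of freedom at least 13.9).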

Additional observations from a re-analysis of the deposited data

Results flagged for a closer look

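In 8 of the 40 groups of 5 libraries examined (10 genes in 4 groups), a single library lay farther from the others than Dixon's 95% critical value allows. Chance gives about 1 in 20 for normally distributed values in independent groups. Here CPM was taken on its linear scale and the genes share libraries, so that rate is only a rough guide. Of the 8, 6 were sgTrp53+MYC replicate 2. It was the high library of its group for Dusp6 (82.3 CPM), Dusp4 (7.78 CPM), Spry2 (9.66 CPM), Spry4 (25.7 CPM), Etv4 (20.7 CPM) and Fosl1 (15.3 CPM), while Spry1, Spred1, Etv5 and Egr1 were not set apart there by this measure. The other 2 were Aldafermin+MYC replicate 3, high for Dusp4 (1.79 CPM) and Etv4 (1.36 CPM).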

How the results depend on the processing

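Limits: the sgTrp53+MYC libraries have a table of their own, groups hold 5 tumors, and Dusp4, Etv4 and Fosl1 were read too rarely for small differences to be detectable. Of the log2 fold changes of single genes under other settings, 394 kept direction and side of the threshold, 34 passed newly, 11 no longer passed and 17 reversed. With 1 library left out, these numbers were 886, 25, 17 and 32. The cause of these changes was not tested.

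For Aldafermin+MYC against liver, 1 member passed, and 2 did with DESeq2, the likelihood ratio test, RLE factors or no filter, 5 with library size alone, 4 with only the compared groups and 1 to 3 with a library left out. For FGF19+MYC against liver it was 1, and 4 with library size alone, 2 with no filter, 7 with only the compared groups and 1 to 3 with a library left out. For sgTrp53+MYC against liver it was 2, and 0 with library size alone, 1 with no filter, filterByExpr, only the compared groups or GC content and exon length, and 1 to 4 with a library left out. For Aldafermin+MYC against sgTrp53+MYC it was 1, and 3 with DESeq2 or the replicate block, 2 with the likelihood ratio test or GC content and exon length, and 1 to 4 with a library left out. For FGF19+MYC against sgTrp53+MYC it was 2, and 1 with library size alone, no filter, only the compared groups or GC content and exon length, and 1 to 4 with a library left out. Between Aldafermin+MYC and FGF19+MYC it was 0 throughout.

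Over all genes, Aldafermin+MYC against FGF19+MYC gave 0 calls, 96 with DESeq2, 59 with the likelihood ratio test, 2 with RLE factors and 0 to 29 with a library left out. With only the compared groups there were 1075 calls for Aldafermin+MYC and 1436 for FGF19+MYC against sgTrp53+MYC, in place of 2534 and 2258. Of the 28 correlated pairs 15 passed, 0 in the first table alone and 1 to 19 with a library left out.

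Library size alone moved the median of all genes against liver from 0.13, 0.06 and 0.07 to 0.97, 0.91 and 0.95, and the share of calls that were higher from 54.6%, 52.9% and 52.8% to 78.2%, 77.3% and 77.9%. It reversed, against liver, Dusp4 (0.37) and Spry4 (0.24) in Aldafermin+MYC, Spry4 (0.088) in FGF19+MYC, and Spry1 (0.47), Spry4 (0.13) and Etv5 (0.54) in sgTrp53+MYC, and Spry2 (9.5e-05) between the hormone groups. Dusp6 in Aldafermin+MYC against sgTrp53+MYC, near 0, turned to -0.013 with DESeq2 and with RLE factors, -0.0034 with library size alone, -0.098 with no filter and -0.017 with GC content and exon length, and Spry4 to -0.011 with no filter.

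The replicate numbers do not pair the animals: libraries of 1 number correlated from -0.333 to 0.333 in their deviations, and at most 2 of 5 in a comparison matched their own number best. With the replicate block, Spry2 (0.023) and Spry4 (-0.16) reversed between the hormone groups, as did Dusp4 (0.38) and Spry4 (0.66) in FGF19+MYC against sgTrp53+MYC, and the added calls were Etv5 and Spry1 in Aldafermin+MYC and Etv5 in FGF19+MYC against sgTrp53+MYC, and Dusp6 in sgTrp53+MYC against liver.

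With a library left out, signs changed within these ranges: against liver Dusp4 in FGF19+MYC from -0.043 to 0.67, and Dusp4 from -1.24 to 1.33 and Spry2 from -0.69 to 0.94 in sgTrp53+MYC. Between the hormone groups Spry2 ranged from -0.47 to 0.22, Spry4 from -0.37 to 0.33 and Etv5 from -0.12 to 0.24. Against sgTrp53+MYC, Dusp6 ranged from -0.24 to 1.27, Dusp4 from -2.39 to 0.74 and Spry4 from -0.38 to 1.5 in Aldafermin+MYC, and Dusp4 from -1.08 to 1.64 and Spry4 from -0.27 to 1.37 in FGF19+MYC.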
